A study of Mus musculus with 6 samples.

Results

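The genes described here are 39 genes of the ATF4 response, chosen by symbol from 11609 mRNA genes measured in mouse N2a cells. They are 18 stress regulators and secreted factors, 13 enzymes of amino acid and folate-linked metabolism, 7 amino acid transporters and the tRNA exporter gene Xpot. Of the 39, 38 had a row and all 38 passed the filter on low values; the lipoprotein receptor gene Vldlr was not analysed here. N2a is a mouse neuroblastoma line, and its poly(A) RNA was sequenced. The treated cells had received RSL3 at 5 µM for 24 h, an inhibitor of GPX4, the enzyme that clears lipid peroxides, and so an inducer of ferroptosis. The control cells had received its solvent DMSO without RSL3, also for 24 h. Both groups had first been differentiated with 10 µM retinoic acid over 96 h in medium with 2% serum. Each group had 3 libraries, and no label says whether these came from separate cultures, so p-values measure only the spread between libraries.

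ATF4 is a transcription factor whose translation rises when the initiation factor eIF2 is phosphorylated by stress-sensing kinases, among them GCN2, which senses uncharged tRNA. With C/EBP partners it switches on genes for amino acid synthesis, amino acid import and tRNA charging, as well as regulators such as CHOP (Ddit3) and TRIB3 that shape survival under lasting stress. PPP1R15A brings a phosphatase to eIF2 and so reverses the signal. Because ATF4 is controlled largely at translation, the level of its mRNA need not follow the amount of the protein.

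Some of these genes carry the composite C/EBP-ATF element in their promoters. RefSeq promoter windows (GRCm38.p6), from 250 bases before to 50 bases after each RefSeq start, were found for 32 of the 39 genes. These genes had 40 windows, and a gene was counted when any of its windows held the motif. A RefSeq start can lie inside the span that GENCODE M21 gives a gene, as for Atf3, Nupr1 and Mthfd2. Windows of 8 of them (25.0%) held the 8-base motif TGATGNAA on either strand, against 4.51% of all 27025 genes with a window. The genes were Asns, Pycr1, Atf3, Fgf21, Nupr1, Trib3, Slc1a4 and Vldlr. The stretches of 30 bases around the motif are shown for the 7 genes with expression values, because these can be set beside their changes with RSL3. They are written 5′ to 3′ on the strand of the gene, with the match to the motif or to its reverse complement TTNCATCA in capitals.
Asns (chr6:7693214-7693243, minus strand): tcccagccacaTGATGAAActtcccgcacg
Pycr1 (chr11:120643833-120643862, minus strand): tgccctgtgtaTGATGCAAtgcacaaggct
Atf3 (chr1:191183425-191183454, minus strand): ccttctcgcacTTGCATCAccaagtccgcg
Fgf21 (chr7:45615611-45615640, minus strand): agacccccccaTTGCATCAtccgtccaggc
Nupr1 (chr7:126625562-126625591, minus strand): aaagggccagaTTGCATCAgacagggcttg
Trib3 (chr2:152344028-152344057, minus strand): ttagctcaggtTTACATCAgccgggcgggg
Slc1a4 (chr11:20332699-20332728, minus strand): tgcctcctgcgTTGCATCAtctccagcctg

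Relative to the RefSeq start, the match began 23 bases before Asns, 103 before Pycr1, and 110 before Atf3 and Nupr1. It began 139 bases before Fgf21 and 4 before Slc1a4, and at base 15 after the RefSeq start of Trib3. A shorter form, TGATGNA, which every composite match contains, was found in 14 genes (43.8%), against 13.8% of all genes. Among them were Gpt2 and Mthfd2, enzyme genes that fell with RSL3 and whose stretches are shown for comparison, with the shorter match in capitals.
Gpt2 (chr8:85492467-85492496, plus strand): agtttatccggTTCATCActgcagtgttga
Mthfd2 (chr6:83317771-83317800, minus strand): agatttttgttTGATGAAtgaatgaatgaa

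A match is a description of letters and not a mapped site, and its absence says only that these letters are not in this window.

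The deposited values are in FPKM, fragments scaled to transcript length and to library size. The summed mRNA values were 200135 to 213765 FPKM in the RSL3 libraries and 220605 to 225295 FPKM in the DMSO libraries, and read depth is unknown. RSL3 replicates 1 and 2 deviated in opposite ways. Across genes, the difference of a library from its group mean correlated with transcript GC content at 0.64 in RSL3 replicate 1 and -0.60 in RSL3 replicate 2. In the others it stood at -0.23 to 0.12. Differences within a group balance out, so this does not single out 1 library. RSL3 replicate 1 also had the lowest median over all genes, -0.098 from the DMSO mean, so each main count is also given without it. The 2 lncRNAs of the ribosomal RNA locus, Gm26917 and Gm42418, summed to 26639 to 33129 FPKM with RSL3 and 18793 to 22979 FPKM with DMSO. Of 13 neuronal and sympathetic neuroblast markers 11 had a row. Of the 10 tested, 3 fell and 0 rose, where 3.92% of all tested genes fell. Tubb3 stood at 115 ± 2.25 FPKM with RSL3 and 116 ± 1.02 FPKM with DMSO (SD, n = 3 each), while the neurofilament genes Nefl and Nefm were not analysed here. Of 4 microglial and leukocyte markers 0 had a row, and the summed level of 4 astrocyte markers was at most 1.37 FPKM with RSL3 and 0.47 FPKM with DMSO. The 7 hepatocyte markers, Alb among them, summed to 10.7 to 20.0 FPKM with RSL3 and 45.8 to 61.7 FPKM with DMSO, and 6 of 6 tested fell.

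With RSL3, 6 of the 21 tested enzyme, transporter and tRNA export genes of the ATF4 response fell and 15 did not pass, and of 17 tested regulators 14 did not pass. Of 38 tested genes 8 fell: the enzyme genes Cth, Aldh18a1, Gpt2, Mthfd2 and Psph, the transporter gene Slc7a5, and from the regulators Stc2 and Ppp1r15a. Only Ddit4, an inhibitor of mTORC1 signalling, rose. A gene was called at a Benjamini-Hochberg adjusted p under 0.05 in limma, over the 10590 genes that reached 1 FPKM in 3 or more libraries. By this rule 3.92% of all tested genes were lower and 2.46% higher with RSL3, 6.38% in all. Enzymes fell in 5 of 13 cases (38.5%), transporters in 1 of 7 (14.3%) and regulators in 2 of 17 (11.8%), and 1 regulator (5.9%) rose. No p is given for these shares, since the genes were chosen with earlier results known. Protein-coding genes on the opposite strand overlap Ppp1r15a, Slc7a5, Shmt2, Aldh1l2, Atf5, Cebpb, Ddit3 and Slc6a9. Other opposite-strand annotations overlap Psph, Psat1, Atf3, Cebpg and Ppp1r15b. Since the use of strand in quantification is not given, the reads of these opposite-strand pairs may be mixed. Same-strand annotations overlap Cth, Aldh18a1, Mthfd2, Mthfd1l, Xpot, Sesn2 and Cebpg, and another Ddit3 entry overlaps Ddit3. Strand cannot separate the reads of these. In bulk RNA, fewer cells that express a gene and less of its RNA per cell cannot be told apart.

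**Figure D1:**
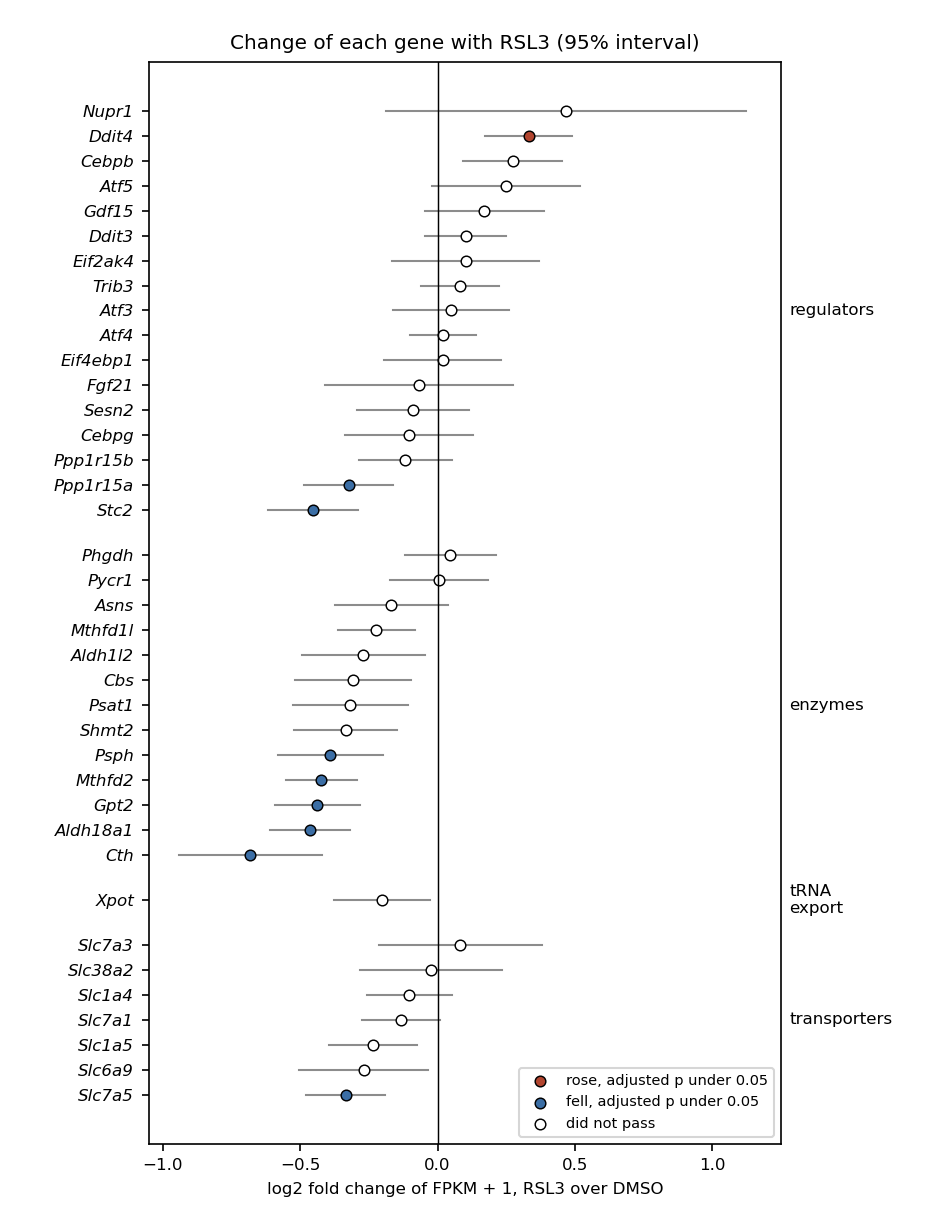
The change of each tested gene is plotted on the horizontal axis as a log2 fold change of FPKM + 1, RSL3 over DMSO, with its 95% interval as a line, grouped by role down the page. Filled points passed the test. Left of 0 lie 11 of 13 enzymes and 6 of 17 regulators, where 5975 of all 10590 tested genes had a value below 0.

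Among the regulators, Atf4 itself had 445, 437 and 439 FPKM in the RSL3 libraries, against 428, 433 and 441 FPKM in the DMSO libraries. The ranges overlapped, and the log2 fold change was 0.022 (95% interval -0.098 to 0.14, limma adjusted p = 0.841). After quantile normalization it was 0.18 (adjusted p = 0.131). In DMSO cells Atf4 already stood at the 99.6th percentile of the tested genes. Ddit3, which encodes the stress factor CHOP, had 64.0, 63.8 and 58.0 FPKM with RSL3 and 57.5, 59.1 and 56.1 FPKM with DMSO. The highest DMSO library lay above the lowest RSL3 library, and the log2 fold change was 0.10 (95% interval -0.046 to 0.25, limma adjusted p = 0.371). It was 0.24 with GC and length trends removed (adjusted p = 0.112).

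Trib3, a pseudokinase induced by ATF4 and CHOP, had 126, 115 and 128 FPKM with RSL3 and 117, 117 and 116 FPKM with DMSO. RSL3 replicate 2 lay below all DMSO libraries and the other two lay above them (log2 fold change 0.081, limma adjusted p = 0.459). After quantile normalization its value was 0.18 (adjusted p = 0.122). Atf3, a stress-induced repressor, had 34.9, 32.6 and 28.7 FPKM with RSL3 and 28.6, 32.6 and 31.6 FPKM with DMSO, so the groups covered nearly the same range. Its log2 fold change of 0.048 (limma adjusted p = 0.793) turned to -0.014 without RSL3 replicate 1 and to -0.0064 without DMSO replicate 1. Nupr1, a small stress-induced chromatin protein, had 46.3, 54.3 and 38.4 FPKM with RSL3 and 53.4, 26.3 and 25.2 FPKM with DMSO. DMSO replicate 1 was far above the other two DMSO libraries, and the value of 0.47, the highest among the regulators, came with a 95% interval from -0.19 to 1.12 (limma adjusted p = 0.357). It was 0.81 without DMSO replicate 1 (adjusted p = 0.0574), 0.31 without DMSO replicate 2 and 0.28 without DMSO replicate 3.

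In 2 further factors the groups did not overlap and RSL3 was higher, without the gene passing. Such a separation in this direction held for 13.4% of all tested genes, and in either direction for 33.0%. Cebpb, a C/EBP partner of ATF4, averaged 84.7 ± 7.52 FPKM with RSL3 and 69.8 ± 2.13 FPKM with DMSO (SD, n = 3 each; log2 fold change 0.27 ± 0.077 SE, limma adjusted p = 0.0814). It passed without RSL3 replicate 2 (0.35, limma adjusted p = 0.0287), but in 0 of 8 alternatives that kept all libraries. With GC and length trends removed its value was 0.16 (limma adjusted p = 0.13). Atf5, an ATF4-related factor of the mitochondrial stress response, averaged 174 ± 30.3 FPKM with RSL3 and 145 ± 3.54 FPKM with DMSO, with 209 FPKM in RSL3 replicate 1. Its value was 0.25 with all libraries and 0.11 without that one. Cebpg, another ATF4 partner, averaged 11.5 ± 1.6 FPKM with RSL3 and 12.4 ± 0.095 FPKM with DMSO.

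Among signalling genes, Ddit4 had 147, 131 and 138 FPKM in RSL3 libraries and 112, 104 and 114 FPKM in DMSO libraries. The groups did not overlap, and the mean was 26.1% higher with RSL3 (log2 fold change 0.33 ± 0.067 SE, limma adjusted p = 0.0332). Median-ratio scaling ended the call (adjusted p = 0.0590), as did leaving out RSL3 replicate 3 or any single DMSO replicate (0.103 to 0.151). Ppp1r15a, the stress-induced phosphatase subunit that restores translation, had 44.9, 50.2 and 51.8 FPKM with RSL3 and 61.8, 61.8 and 60.8 FPKM with DMSO. Every RSL3 library was lower, and the mean fell by 20.3% (-0.32 ± 0.068 SE, limma adjusted p = 0.0392). The call was lost after quantile normalization (-0.24, adjusted p = 0.0726) and without any library except RSL3 replicate 1 (adjusted p from 0.0509 to 0.169). Its constitutive relative Ppp1r15b averaged 35.8 ± 2.66 FPKM with RSL3 and 38.8 ± 1.16 FPKM with DMSO, without passing (limma adjusted p = 0.372).

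Stc2, a secreted glycoprotein induced by ATF4, had 13.9, 12.3 and 12.7 FPKM with RSL3 and 17.8, 18.4 and 18.1 FPKM with DMSO. All RSL3 libraries lay below all DMSO libraries, and the mean fell by 28.4% (log2 fold change -0.45 ± 0.069 SE, limma adjusted p = 0.0138). Without RSL3 replicate 3 or any single DMSO replicate the adjusted p lay between 0.0646 and 0.0803. The stress hormone genes Gdf15 and Fgf21 did not pass: Gdf15 averaged 29.0 ± 3.4 FPKM with RSL3 and 25.5 ± 1.10 FPKM with DMSO, and Fgf21 1.67 ± 0.46 FPKM with RSL3 and 1.79 ± 0.32 FPKM with DMSO. Neither did Sesn2, a leucine sensor that restrains mTORC1 (37.5 ± 4.23 FPKM with RSL3 and 39.8 ± 0.46 FPKM with DMSO), nor the translation repressor gene Eif4ebp1 (130 ± 16.3 FPKM with RSL3 and 128 ± 1.70 FPKM with DMSO). Eif2ak4, which encodes the kinase GCN2, averaged 4.58 ± 0.59 FPKM with RSL3 and 4.20 ± 0.50 FPKM with DMSO (limma adjusted p = 0.639).

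**Figure D2:**
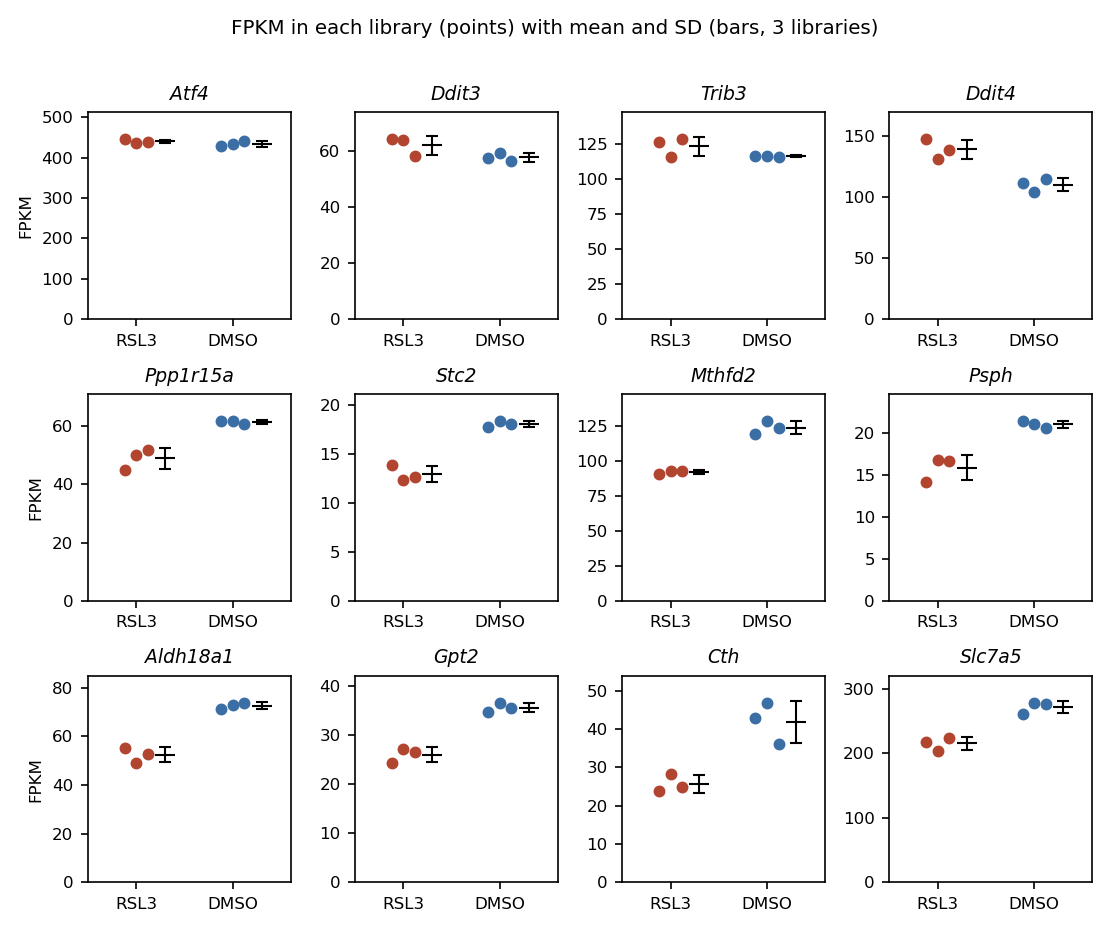
FPKM is shown on the vertical axis from 0 for 12 genes, with RSL3 left of DMSO; points are libraries and bars the mean and SD of 3 libraries. Atf4, Ddit3 and Trib3 overlap between the groups, Ddit4 is higher in all RSL3 libraries, and the other 8 genes are lower in all of them.

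Of 7 serine and folate-linked enzymes 2 fell, where 3.92% of all tested genes did, and in 6 of them every RSL3 library lay below every DMSO library, as in 19.6% of all tested genes. Mthfd2, the mitochondrial methylenetetrahydrofolate dehydrogenase (chromosome 6, 83305691 to 83325908, minus strand), had 90.4, 93.0 and 92.5 FPKM with RSL3 and 119, 128 and 123 FPKM with DMSO. The groups were far apart relative to their spread, and the mean fell by 25.6% (log2 fold change -0.42 ± 0.055 SE, limma adjusted p = 0.00825). Psph, which performs the last step of serine synthesis (chromosome 5, 129765558 to 129787449, minus strand), had 14.1, 16.8 and 16.7 FPKM with RSL3 and 21.4, 21.1 and 20.6 FPKM with DMSO. All RSL3 libraries were lower, replicate 1 the most (-0.39 ± 0.082 SE, limma adjusted p = 0.0386). Psph lost its call without RSL3 replicate 3 or any single DMSO replicate (adjusted p from 0.0897 to 0.170), and Mthfd2 without DMSO replicate 2 or 3 (0.0555 and 0.0567).

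Psat1, the middle enzyme of serine synthesis, had 48.2, 59.4 and 59.3 FPKM with RSL3 and 67.9, 70.2 and 69.5 FPKM with DMSO. The groups did not overlap, but the gene did not pass (-0.32 ± 0.089 SE, limma adjusted p = 0.0818); without RSL3 replicate 1 it did (-0.22, adjusted p = 0.0272). Shmt2, the mitochondrial enzyme that splits serine, averaged 94.1 ± 9.36 FPKM with RSL3 and 119 ± 3.11 FPKM with DMSO (SD, n = 3 each; limma adjusted p = 0.0543). It passed without RSL3 replicate 1 (-0.41, adjusted p = 0.0113). Mthfd1l and Aldh1l2, later enzymes of the mitochondrial folate pathway, stood at -0.22 and -0.27 (limma adjusted p = 0.0726 and 0.142), with groups that did not overlap in either. Phgdh, which opens the serine pathway, did not follow them: it had 195, 169 and 193 FPKM with RSL3 and 181, 176 and 182 FPKM with DMSO. The ranges overlapped, and the log2 fold change was 0.047 (95% interval -0.12 to 0.21, limma adjusted p = 0.736). It was 0.18 after quantile normalization (adjusted p = 0.219) and 0.0097 without RSL3 replicate 1.

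The remaining enzymes included the gene with the largest fall of all 38. Cth, cystathionine gamma-lyase, which makes cysteine from cystathionine (chromosome 3, 157894248 to 157925077, minus strand), had 23.8, 28.3 and 24.9 FPKM with RSL3 and 42.8, 46.8 and 36.0 FPKM with DMSO. Every RSL3 library was lower, and the mean fell by 38.7% (log2 fold change -0.68 ± 0.11 SE, limma adjusted p = 0.0161). The call was lost without RSL3 replicate 3, DMSO replicate 1 or DMSO replicate 2 (adjusted p = 0.0760, 0.0832 and 0.0729). Cbs, the enzyme before it in transsulfuration, averaged 2.10 ± 0.26 FPKM with RSL3 and 2.83 ± 0.029 FPKM with DMSO, with no overlap (-0.31, limma adjusted p = 0.0896); without RSL3 replicate 1 it passed (-0.37, adjusted p = 0.0262). Both genes are strongly expressed in liver, and the hepatocyte markers were lower in the same RSL3 libraries; their part in these values was not tested.

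Aldh18a1, which starts proline synthesis from glutamate (chromosome 19, 40550257 to 40588463, minus strand), had 55.2, 49.2 and 52.8 FPKM with RSL3 and 71.1, 72.8 and 73.7 FPKM with DMSO. All RSL3 libraries were lower, and the mean fell by 27.8% (log2 fold change -0.46 ± 0.063 SE, limma adjusted p = 0.00915). Pycr1, which completes proline synthesis, showed no such difference: it averaged 8.51 ± 0.32 FPKM with RSL3 and 8.48 ± 0.49 FPKM with DMSO (0.0050, 95% interval -0.17 to 0.18). Gpt2, the mitochondrial alanine aminotransferase (chromosome 8, 85492576 to 85527560, plus strand), had 24.3, 27.2 and 26.5 FPKM with RSL3 and 34.7, 36.5 and 35.3 FPKM with DMSO. The groups did not overlap (-0.44 ± 0.066 SE, limma adjusted p = 0.0127). Aldh18a1 lost its call without DMSO replicate 2 or 3 (adjusted p = 0.0573 and 0.0615), and Gpt2 without RSL3 replicate 3 or any single DMSO replicate (0.0546 to 0.0777). Asns, which makes asparagine, had 211, 252 and 245 FPKM with RSL3 and 283, 247 and 265 FPKM with DMSO. The ranges overlapped, and the value of -0.17 did not pass (95% interval -0.37 to 0.038, limma adjusted p = 0.290). It was -0.089 without RSL3 replicate 1 and -0.040 after quantile normalization.

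As a group, the RSL3 libraries lay below every DMSO library in 10 of 13 enzymes, where 19.6% of all tested genes did so. The summed enzyme level was 855 ± 23.9 FPKM with RSL3 and 1010.2 ± 6.55 FPKM with DMSO, and that of the regulators 1414 ± 69.2 FPKM with RSL3 and 1329 ± 9.76 FPKM with DMSO (SD, n = 3 each). The median log2 fold change was -0.32 for enzymes, -0.13 for transporters and 0.048 for regulators, against -0.031 over all tested genes. Within the regulators it was 0.092 for the transcription regulators with Trib3 and -0.067 for the signalling and secreted genes. By library, the enzyme median stood at -0.39, -0.31 and -0.31 from the DMSO mean in RSL3 replicates 1, 2 and 3, while the regulator median stood at 0.15, 0.011 and 0.010. Without RSL3 replicate 1 the medians were -0.31 for enzymes and 0.014 for regulators, and 8 enzymes fell, Psat1, Shmt2 and Cbs in addition to the 5 above. With GC and length trends removed 9 fell, Psat1, Shmt2, Mthfd1l and Aldh1l2 in addition. In that fit the medians were -0.28 for enzymes and 0.0785 for regulators, against 0.0023 over all tested genes. The median transcript GC content was 49.8% in enzymes and 54.5% in regulators, against 49.97% over all tested genes, and its part in the difference between the roles was not tested. Of the enzymes 0 rose in limma, and 0 were higher and 10 lower at an unadjusted p under 0.05, a level that 24.1% of all tested genes passed. By direction, 1511 of all 10590 tested genes were lower at that level and 1044 were higher.

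**Figure D3:**
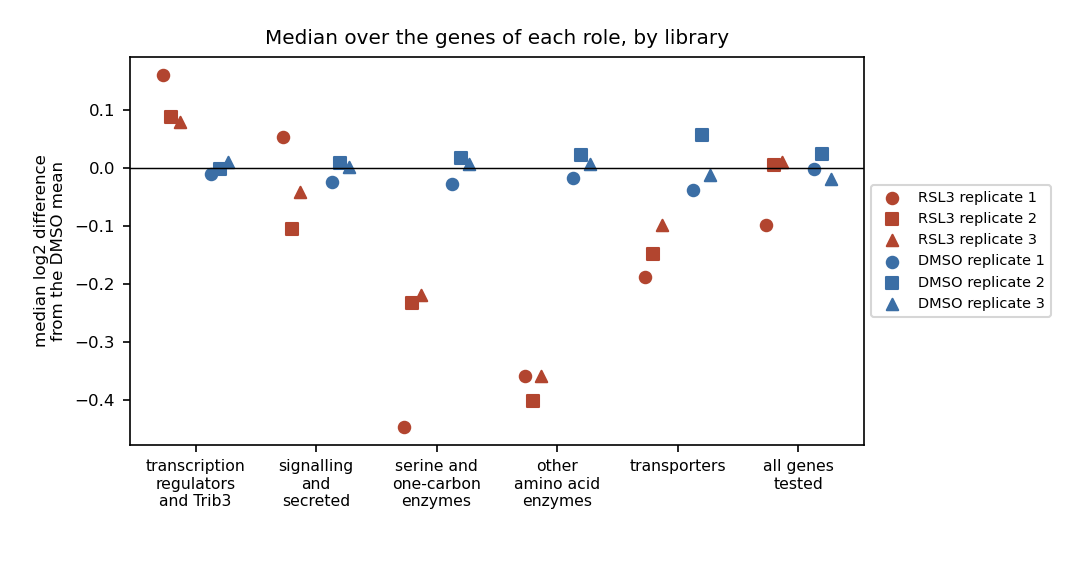
The vertical axis gives the median over the genes of a role of the log2 difference of each library from the DMSO mean, with RSL3 libraries left of DMSO libraries. Both enzyme groups lie below 0 in all 3 RSL3 libraries, and the transcription regulators with Trib3 lie above it. The signalling and secreted genes lie at 0.053, -0.11 and -0.041 in RSL3 replicates 1, 2 and 3. RSL3 replicate 1 is lowest in the serine and folate-linked enzymes and over all genes.

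The number of calls depended on single libraries. Enzymes that fell numbered 8, 5 and 2 without RSL3 replicates 1, 2 and 3, and 2, 0 and 1 without DMSO replicates 1, 2 and 3. Without RSL3 replicate 1, 1 regulator rose, 2 regulators fell and 1 transporter fell, the same counts as with all 6 libraries. In the same fits the calls over all genes numbered 1299, 737, 189, 196, 158 and 145, against 676 with all 6 libraries. The enzyme median stayed between -0.34 and -0.31 in these 6 fits.

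**Figure D4:**
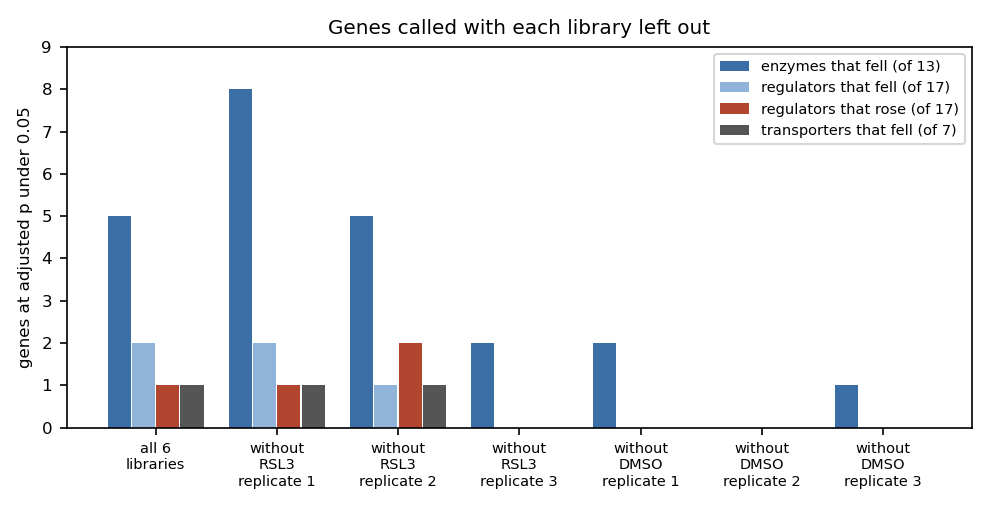
Bars give on the vertical axis, from 0, the number of enzymes, regulators and transporters past an adjusted p of 0.05 with all 6 libraries and with each library left out. Between 0 and 8 enzymes fell, and without DMSO replicate 2 no gene of any role was called.

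Among the transporters, Slc7a5, the large neutral amino acid exchanger (chromosome 8, 121881150 to 121907694, minus strand), had the highest level in FPKM and was the only one of 7 that fell. It had 218, 204 and 224 FPKM with RSL3 and 261, 279 and 276 FPKM with DMSO. All RSL3 libraries were lower (log2 fold change -0.33 ± 0.062 SE, limma adjusted p = 0.0236). Its adjusted p was 0.194 after quantile normalization (-0.17), 0.0533 when libraries were scaled by median ratios (-0.30), and 0.0643 to 0.124 without RSL3 replicate 3 or any single DMSO replicate, so the call was lost in each of these.

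Slc6a9, a glycine transporter, had 14.5, 17.3 and 19.1 FPKM with RSL3 and 20.3, 21.2 and 20.0 FPKM with DMSO; the groups did not overlap and the value of -0.27 did not pass (limma adjusted p = 0.159). The neutral amino acid transporter gene Slc1a5 (-0.23, limma adjusted p = 0.0882) and the arginine and lysine transporter gene Slc7a1 (-0.13, adjusted p = 0.229) were also lower in every RSL3 library. Slc1a4, a serine and alanine transporter, stood at -0.10, the glutamine transporter gene Slc38a2 at -0.024 and the cationic transporter gene Slc7a3 at 0.084, and in these the groups overlapped. Slc38a2 stood at 0.10 without RSL3 replicate 1 and at 0.083 after quantile normalization. Xpot, the exporter of tRNA from the nucleus, averaged 59.6 ± 3.93 FPKM with RSL3 and 68.7 ± 4.03 FPKM with DMSO, with no overlap (-0.20, limma adjusted p = 0.152).

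The motif and the changes can be set side by side. Of the 7 tested genes with the composite motif 0 passed in limma, and 0 had an unadjusted p under 0.05. Over all tested genes these shares were 6.38% and 24.1%, so counts of 0 among 7 genes say little about genes with the motif. Their log2 fold changes were -0.17 for Asns, -0.10 for Slc1a4, -0.067 for Fgf21, 0.0050 for Pycr1, 0.048 for Atf3, 0.081 for Trib3 and 0.47 for Nupr1. Of the 9 genes that passed, 7 had a promoter window; 0 of these held the composite motif and 3 the shorter form.

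Other genes of the pathway were counted in 6 lists, to be read against the 6.38% of all tested genes that were called. Of 12 genes for eIF2 kinases, eIF2 and its exchange factor eIF2B, 1 fell, the eIF2B subunit gene Eif2b1 (13.6 ± 0.68 FPKM with RSL3 and 17.9 ± 0.41 FPKM with DMSO, limma adjusted p = 0.0214). Of 27 tested ATF4 partners and other reported targets 1 rose, the AP-1 factor gene Jund (73.6 ± 10.3 FPKM with RSL3 and 47.8 ± 2.80 FPKM with DMSO, limma adjusted p = 0.0197). The asparaginyl- and seryl-tRNA synthetase genes Nars and Sars fell (-0.33 and -0.23, limma adjusted p = 0.0227 and 0.0480). Of 14 other tested serine, folate and methionine enzymes 2 fell, the trifunctional cytosolic folate enzyme gene Mthfd1 (27.7 ± 0.43 FPKM with RSL3 and 34.3 ± 0.14 FPKM with DMSO, limma adjusted p = 0.0223) and Gcsh of the glycine cleavage system (-0.33, adjusted p = 0.0394). Of 13 other tested glutamate, proline and asparagine enzymes 1 fell, the cytosolic aspartate aminotransferase gene Got1 (30.2 ± 1.11 FPKM with RSL3 and 40.04 ± 1.27 FPKM with DMSO, limma adjusted p = 0.0135). In limma 0 of 11 other tested amino acid transporters and 0 of 12 genes of GCN2 and mTORC1 sensing passed, with 1 and 3 at an unadjusted p under 0.05, a level passed by 24.1% of all tested genes. By direction, 1511 of all 10590 tested genes were lower with RSL3 at that level and 1044 were higher. Among the 27 ATF4 partners and targets 10 were lower with RSL3 and 1 was higher. Of the 14 serine, folate and methionine enzymes 6 were lower and 0 higher. Lower were also 4 of the 13 glutamate, proline and asparagine enzymes, with 1 higher, and 2 of the 12 eIF2 genes, with 0 higher. The medians of these 6 lists lay between -0.17 and 0.014.

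Circular RNAs were also listed for these libraries, which were made from poly(A) RNA. How far that selection removed circular RNAs was not tested. Of 1414 circRNAs named by coordinates, 4 lay within 3 of the 39 genes, all enzymes: Aldh1l2 with 2, Mthfd2 and Mthfd1l. The other 1754 of the 3168 circRNAs have circBase names and were not searched for these genes. The circRNA of Mthfd2 (chromosome 6, 83308933 to 83313546) had 181, 699 and 298 units with RSL3 and 986, 0 and 419 units with DMSO, on the authors' scale headed CPM. The groups overlapped. The smallest value above 0 in a library was 110 to 181 units. No test was made on them.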

How the data were processed

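Poly(A) RNA of 6 libraries (3 RSL3, 3 DMSO) was sequenced after a stranded library preparation, per the labels' protocols. Reads were processed on GRCm38 with StringTie 1.3.3, HISAT2 and cutadapt, per the submitters' processing notes. No source used here gives the annotation release or the use of strand. The deposited mRNA and lncRNA values are FPKM, made by the authors, so read depth is unknown and no counting interval can be given. The deposited circRNA values are a signal headed CPM, per the file headers, and were described only.

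From the FPKM values, log2(FPKM + 1) was fitted with limma 3.58.1 in R 4.3.3 with a mean-variance trend, over the 10590 genes that reached 1 FPKM in 3 or more libraries. A gene was called at a Benjamini-Hochberg adjusted p under 0.05 over all genes tested. Fold changes on this scale understate those of low genes. Intervals are 95% intervals of the fit. The fit was tested on simulated data with known changes, which were larger than any of the ATF4 response genes reported here. The simulated libraries had no GC trends, so that test does not cover smaller changes or such trends. Gene positions come from GENCODE M21 (GRCm38). The genes and lists were chosen with earlier results of these data known. Values in every library are given for each called gene, for 9 genes fixed by name, and in each role for the gene of highest FPKM and the 2 of largest change; up to 3 called genes are named from other lists. Other genes named were chosen after their values were seen.

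Replicate numbers are shared between the groups, but the correlation between RSL3 and DMSO libraries of one number, each taken relative to its group mean, was -0.14, 0.049 and -0.062, so the libraries were not treated as pairs. Alternatives were another pseudocount, filter, scaling and variance model, removal of GC and length trends, a replicate block, and leaving out each library. One marker gene and one promoter stretch are not reported here.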

Additional observations from a re-analysis of the deposited data

How the results depend on the processing

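The number of calls moved with single libraries and with the removal of GC and length trends. With each library left out in turn, over all genes the calls numbered 145 to 1299 (47 to 541 higher and 97 to 758 lower with RSL3), regulators that rose 0 to 2, regulators that fell 0 to 2, enzymes that fell 0 to 8 and transporters that fell 0 to 1, and none of the 9 called genes passed in all 6 of these fits. With GC and length trends removed 1684 genes were called (752 higher, 932 lower), 9 enzymes and 2 transporters fell. With a replicate block, although the numbers share no pairing beyond the number itself, 253 genes were called (88 higher, 165 lower), 0 regulators rose, 0 regulators fell, 4 enzymes fell and 0 transporters fell. Regulators that rose numbered 0 with median-ratio scaling and 0 without the variance trend; regulators that fell numbered 1 after quantile normalization and 1 without the variance trend; transporters that fell numbered 0 with median-ratio scaling and 0 after quantile normalization. Quantile normalization gave medians of 0.15 for regulators, -0.25 for enzymes and -0.053 for transporters, and 350 higher against 329 lower calls, where the reported fit has 261 and 415. In all 14 alternatives 0 enzymes and 0 transporters rose in limma. Mthfd2, Aldh18a1, Gpt2 and Cth passed in each alternative that kept all 6 libraries. The cause of these differences was not tested.

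The sign of Slc38a2 changed with median-ratio scaling (0.0076), quantile normalization (0.083) and GC and length trends removed (0.040). With single libraries left out, values crossed 0 for Slc38a2 (-0.10 to 0.10), Atf3 (-0.014 to 0.12), Sesn2 (-0.16 to 0.00020), Eif4ebp1 (-0.074 to 0.10), Fgf21 (-0.20 to 0.045), Pycr1 (-0.039 to 0.029) and Slc7a3 (-0.013 to 0.18), none of which was called. The shorter motif TGATGNA was found in 14 genes, against 8 with the composite form. Without read counts, the precision of low genes such as Fgf21 and Cbs cannot be set apart from the spread between libraries.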

Other observations

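Of the other circRNAs named by coordinates in these genes, that of Mthfd1l (chromosome 10, 4015514 to 4018599) was listed at 0, 0 and 447 units in RSL3 replicates 1 to 3. It was listed at 0 in all DMSO libraries. Of the 2 from Aldh1l2, one (83506598 to 83512437) had 1085, 420 and 298 units with RSL3 and 110, 547 and 140 units with DMSO, and the other (83518344 to 83527449) had 362, 0 and 0 units with RSL3 and 0, 547 and 0 units with DMSO. The groups overlapped in both.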
